A study of Mus musculus with 8 samples.

Results

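Kinesins are motor proteins that use ATP to move along microtubules, or to take microtubules apart. One group works in dividing cells, where it separates the spindle poles, moves and aligns chromosomes and builds the midzone at which the daughter cells part. Another group carries vesicles, organelles and ciliary components in cells whether or not they divide, and in the mammary epithelium such microtubule transport serves polarity and secretion. The kinesins described here are all rows of the expression table whose symbol has the form of a Kif gene (Kif followed by a number, with or without the letter a, b or c) or is Kifc1, Kifc2 or Kifc3. The rule, which uses names only, gave 40 of the 24062 genes. They were divided by textbook function into 12 mitotic kinesins, 15 transport kinesins and 13 others, the last mostly genes of cilia, signalling and microtubule control. Kif2a and Kif2b, by name relatives of the mitotic Kif2c, stand among the others, so the counts of mitotic kinesins depend on this division.

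RNA was sequenced from 8 libraries, 2 each of N, P and PRL HC11 cells and of ESC. HC11 is a mammary epithelial line, labelled as wild type and derived from the COMMA-1D cells of Balb/c mice, and a single clonal line stands for the tissue. N (normal) cells grew to confluency with EGF and insulin, P (primed) cells had hydrocortisone and insulin without EGF and in less serum for 48 h, and PRL cells had hydrocortisone, insulin and prolactin for another 72 h. ESC were wild type R1 cells, labelled as strain 129*1 * 129S1, kept with LIF and inhibitors of MEK and GSK on feeder fibroblasts that no longer divided, and were replated before harvest to take the feeders away. Insulin was given to all 3 groups of HC11 cells. EGF, serum, hydrocortisone and time differ together between P and N, and prolactin and time between PRL and P, so their effects cannot be told apart.

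The libraries rest on 11938392 to 33916913 fragments, with the fewest in ESC. In FPKM (fragments scaled to exon length and to the fragments of the library), 6 embryonic stem cell markers summed to at most 0.761 in any HC11 library, against 4652 and 4553 in ESC, and 4 milk protein genes summed to 138 and 120 in PRL cells, against at most 0.609 in P cells. Other markers moved between the HC11 stages. The 12 fibroblast markers summed to 1327 and 1226 FPKM in P, against 672 and 679 in N, and to 374 and 331 in PRL. Most of that sum is Postn, with 1175 and 1074 FPKM in P, against 317 and 348 in N. Postn, Dcn and Lum were called higher in P than in N (4.54% of all genes were). The list went both ways, since 5 of the 12 changed above 0 and 7 below 0, with 0 called lower. Among those below 0, Col1a1, S100a4, Vim and Pdgfrb changed by −2.76, −2.39, −1.49 and −0.98 in log2(FPKM + 1). Of 6 mammary epithelial markers, the basal keratins Krt5 and Krt14 were called lower in P than in N (−2.36 and −1.78 in log2(FPKM + 1)). Elf5 was called higher (1.93), and 3 of the 6 changed above 0 and 3 below 0. The part of these markers in the kinesin values was not tested. The ESC libraries differed from each other, since the same fibroblast markers summed to 581 FPKM in replicate 1 and to 179 FPKM in replicate 2. In ESC, the replicate 1 minus replicate 2 difference in log2(FPKM + 1) had a median of −0.34 over the 12 mitotic kinesins and of 0.23 over the 13 tested transport kinesins. In N and P cells no class median of that difference lay beyond −0.05 or 0.03, and in PRL cells it reached 0.09. In bulk RNA, fewer cells of a type and less RNA per cell cannot be told apart.

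Changes are differences in mean log2(FPKM + 1), given with the standard error (SE) of limma, and understate ratios of genes near or below 1 FPKM. A gene was called higher or lower at a change of at least 1 and an adjusted p under 0.001. Statements that the libraries of 2 groups did or did not overlap describe the values only. With 2 libraries a group, such separation also occurs in genes with little change, and its share over all genes is not given. Tested were the 13210 genes with at least 1 FPKM in at least 2 libraries, among them all 12 mitotic, 13 of 15 transport and 7 of 13 other kinesins. The other 8 (Kif1a, Kif17, Kif2b, Kif6, Kif9, Kif12, Kif19a and Kif27) passed in no group and are described by their levels only.

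The promoters of the mitotic kinesins are shown first, because these 12 genes fell together in P cells. RefSeq windows of 300 bases (250 before the start of transcription and 50 from it on, build GRCm38.p6) were found for 32 of the 40 kinesins, 11 of them mitotic, 10 transport and 11 others. Those without a window are the mitotic Kif20a, the transport kinesins Kif13b, Kif5a, Kif5b, Kifc2 and Kifc3, and Kif19a and Kif21b. Kifc2 and Kif13b, the kinesins called higher in PRL than in N, are thus not covered. They were searched on both strands for CCAAT, the box read by the factor NF-Y, which appears as ATTGG when it lies on the other strand. They were also searched for TTTGAA, the core of the cell cycle genes homology region or CHR, an element known from promoters of late cell cycle genes, which appears as TTCAAA on the other strand. Both are in capitals below. The first 5 are mitotic kinesins with TTTGAA close to the start, Kif18a is the mitotic kinesin without a match, and Kif1c and Kif3b are transport kinesins.
Kif11: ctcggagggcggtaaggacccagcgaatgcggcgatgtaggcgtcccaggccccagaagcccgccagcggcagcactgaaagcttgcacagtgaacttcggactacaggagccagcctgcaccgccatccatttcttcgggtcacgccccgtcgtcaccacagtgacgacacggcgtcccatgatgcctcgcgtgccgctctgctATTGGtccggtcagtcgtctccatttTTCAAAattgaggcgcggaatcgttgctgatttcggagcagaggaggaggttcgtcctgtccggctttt
Kif22: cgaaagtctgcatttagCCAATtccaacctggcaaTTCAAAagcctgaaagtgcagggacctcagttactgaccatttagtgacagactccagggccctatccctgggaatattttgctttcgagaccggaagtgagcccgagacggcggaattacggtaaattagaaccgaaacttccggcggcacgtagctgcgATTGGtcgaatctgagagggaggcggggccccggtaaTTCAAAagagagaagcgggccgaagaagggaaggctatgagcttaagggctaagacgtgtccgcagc
Kif18b: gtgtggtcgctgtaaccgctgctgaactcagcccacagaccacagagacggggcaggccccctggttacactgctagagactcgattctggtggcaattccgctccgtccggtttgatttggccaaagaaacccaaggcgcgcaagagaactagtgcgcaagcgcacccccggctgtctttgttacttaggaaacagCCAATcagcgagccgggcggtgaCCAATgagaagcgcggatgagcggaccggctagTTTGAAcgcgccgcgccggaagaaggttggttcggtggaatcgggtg
Kif4: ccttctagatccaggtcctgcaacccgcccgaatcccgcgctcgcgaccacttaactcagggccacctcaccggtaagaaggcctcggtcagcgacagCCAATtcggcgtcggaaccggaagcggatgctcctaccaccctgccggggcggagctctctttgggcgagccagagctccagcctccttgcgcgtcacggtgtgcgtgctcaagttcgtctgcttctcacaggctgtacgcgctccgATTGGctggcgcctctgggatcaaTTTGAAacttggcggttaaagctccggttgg
Kifc1: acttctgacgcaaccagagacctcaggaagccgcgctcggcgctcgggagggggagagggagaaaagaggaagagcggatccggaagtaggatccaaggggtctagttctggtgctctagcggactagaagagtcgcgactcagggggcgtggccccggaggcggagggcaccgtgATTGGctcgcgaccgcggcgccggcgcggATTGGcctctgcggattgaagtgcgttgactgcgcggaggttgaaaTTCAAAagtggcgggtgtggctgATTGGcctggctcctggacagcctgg
Kif18a: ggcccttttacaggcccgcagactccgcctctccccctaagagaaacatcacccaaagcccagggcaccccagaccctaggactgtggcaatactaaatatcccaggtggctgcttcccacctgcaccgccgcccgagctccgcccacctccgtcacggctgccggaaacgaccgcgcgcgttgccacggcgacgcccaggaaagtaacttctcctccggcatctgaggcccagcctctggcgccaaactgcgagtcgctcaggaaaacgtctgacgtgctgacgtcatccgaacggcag
Kif1c: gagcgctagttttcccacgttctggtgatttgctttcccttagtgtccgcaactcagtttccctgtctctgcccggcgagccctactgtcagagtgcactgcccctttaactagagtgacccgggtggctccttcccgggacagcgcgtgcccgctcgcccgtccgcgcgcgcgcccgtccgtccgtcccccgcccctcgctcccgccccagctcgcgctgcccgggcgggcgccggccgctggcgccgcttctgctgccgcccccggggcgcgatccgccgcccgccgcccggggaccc
Kif3b: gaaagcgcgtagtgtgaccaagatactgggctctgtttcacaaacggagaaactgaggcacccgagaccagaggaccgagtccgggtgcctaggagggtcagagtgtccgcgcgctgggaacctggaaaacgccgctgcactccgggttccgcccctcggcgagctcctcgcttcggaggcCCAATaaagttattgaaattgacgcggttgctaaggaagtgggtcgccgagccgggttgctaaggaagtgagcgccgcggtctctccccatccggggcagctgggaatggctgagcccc

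Of these, Kif11 lies at chr19:37376132-37376431 (plus strand), Kif22 at chr7:127042371-127042670 (minus), Kif18b at chr11:102925075-102925374 (minus), Kif4 at chrX:100625815-100626114 (plus) and Kifc1 at chr17:33890584-33890883 (minus). Kif18a lies at chr2:109280488-109280787, Kif1c at chr11:70700298-70700597 and Kif3b at chr2:153291166-153291465, each on the plus strand. TTTGAA was found in 10 of 11 mitotic kinesins (90.9%), in 1 of 10 transport kinesins (10%) and in 2 of 11 others (18.2%), and in 20.2% of the 27025 genes with a promoter. Its first base lay 19 bases before the start in Kif11 and Kif15 and 17 before it in Kif22, and 1, 2, 3, 7 and 19 bases after it in Kifc1, Kif23, Kif18b, Kif20b and Kif4. Within 30 bases of the start, a window chosen after these positions were seen, it occurred in 8 of 11 mitotic kinesins, 0 of 10 transport kinesins, 1 of 11 others and 3.72% of all genes. Kif20b carries 2 copies in direct succession. In Kif14 and Kif2c the match lay farther off, 228 and 103 bases before the RefSeq start. Among the mitotic kinesins, the windows of Kif14, Kif2c and Kif4 lie inside the genes of the GENCODE annotation. They are downstream of its gene starts at chr1:136466343, chr4:117182639 and chrX:100625737. CCAAT stood in 7 of 11 mitotic kinesins (63.6%), 3 of 10 transport kinesins (30%), 5 of 11 others (45.5%) and 41.1% of all genes. CCAAT together with TTTGAA stood in 7 of 11 mitotic kinesins, 0 of 10 transport kinesins, 2 of 11 others (18.2%) and 7.97% of all genes.

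**Figure D1:**
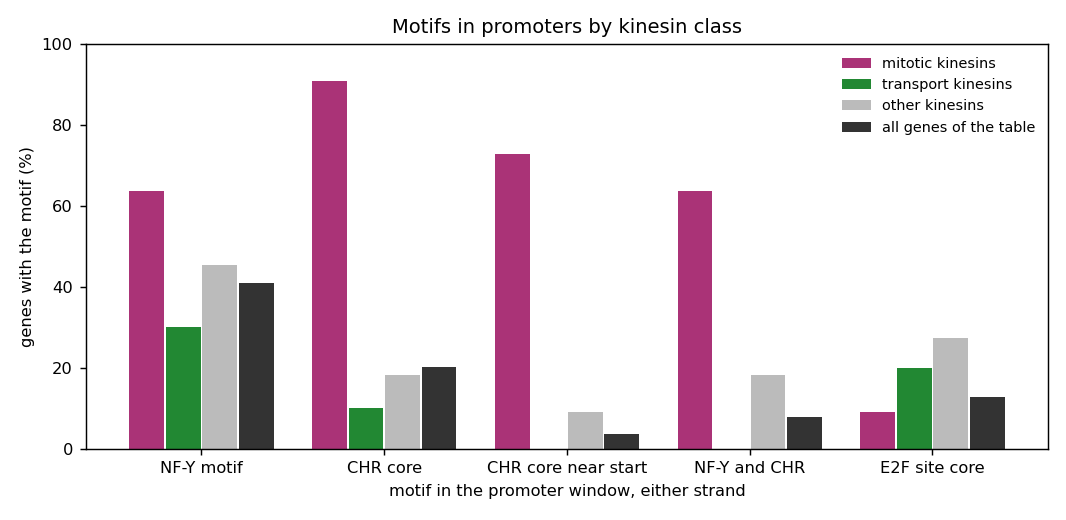
Share of genes (%, vertical axis) whose promoter window holds each motif on either strand, for 11 mitotic, 10 transport and 11 other kinesins and all 27025 genes with a promoter. The CHR core stood in 90.9% of the mitotic kinesins and in 20.2% of all genes, while the E2F core stood in 9.09% and 12.7%.

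The other motifs searched had shares nearer to those of all genes. The variant TTTAAA stood in 2 of 11 (18.2%, against 14.9% of all genes) and TATAAA in 1 of 11 (9.09%, against 15.7%). The core of the site read by E2F factors, GGCGGGA, was found in 1 mitotic kinesin (9.09%, against 12.7%), in 2 transport kinesins and in 3 others, and the longer form GGCGGGAA and TTTCCCGC in 0 of 11 mitotic kinesins (2.52% and 1.24% of all genes). The longer form contains the core. A match is a stretch of letters in a window and not a measured binding site.

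As a whole, kinesin mRNA changed its make-up between the groups. The mitotic kinesins summed to 206 and 214 FPKM in the N libraries, to 22.2 and 21.9 in P, to 4.89 and 4.59 in PRL and to 382 and 484 in ESC. That is 49.1% and 49.7% of all kinesin FPKM in N, 7.81% and 7.61% in P, 2.03% and 2.00% in PRL, and 69.8% and 78.9% in ESC. The transport kinesins summed to 172 and 175 FPKM in N, 224 and 227 in P, 197 and 188 in PRL, and 133 and 101 in ESC. The other kinesins summed to between 37.6 and 42.3 FPKM in the HC11 libraries and to 31.9 and 27.8 in ESC. Their most abundant member in HC11 cells was Kif26a, with means of 16.5, 18.1 and 21.8 FPKM in N, P and PRL. The order of single genes changed with the make-up. By mean FPKM, Kif22 ranked 2nd of the 40 kinesins in N, 13th in P, 17th in PRL and 2nd in ESC, whereas Kif1c ranked first in N, P and PRL cells and 11th in ESC.

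**Figure D2:**
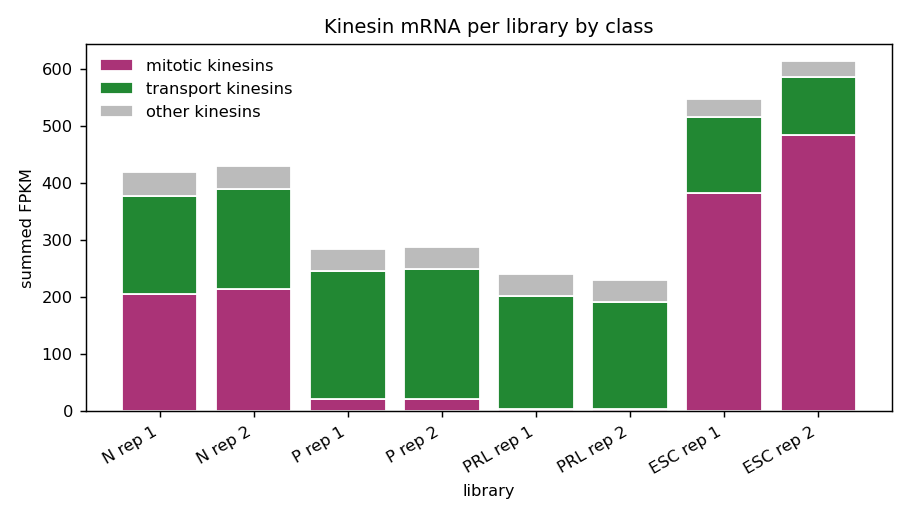
Summed FPKM of the kinesins in each of the 8 libraries (rep, replicate), stacked by class. The mitotic part was 206 and 214 FPKM in N, 22.2 and 21.9 in P, 4.89 and 4.59 in PRL and 382 and 484 in ESC.

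In P cells compared with N cells, all 12 mitotic kinesins fell, while 0 of 13 tested transport kinesins did by limma. Over all genes tested, 4.1% were called lower. At an unadjusted p under 0.05, 0 of the 13 were lower and 6 were higher, against 25.1% of all genes lower and 28.1% higher. The mitotic kinesins had a median change of −2.72 (range −3.13 to −1.66) and the tested transport kinesins one of 0.27 (range −0.19 to 2.05), against 0.02 over all genes, so that the ranges of the 2 classes do not overlap. In FPKM, mean levels of the mitotic kinesins in N were between 6.44 times (Kif18a) and 13.6 times (Kif2c) those in P. The 7 tested other kinesins had a median change of −0.45 (range −0.67 to 0.25), with 5 below 0 and 2 above 0. Among them Kif2a had 6.45 and 6.50 FPKM in P, against 7.86 and 7.74 in N (−0.24, SE 0.08, adjusted p = 0.048). These directions were the same with median ratio scaling and with quantile normalization.

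The motors of spindle assembly fell strongly. Kif11, which slides antiparallel microtubules to push the poles apart, had 2.51 and 2.27 FPKM in P cells, against 23.6 and 25.0 FPKM in N cells, a change of −2.90 (SE 0.18, adjusted p = 5.1e-05). Kif15, which can take over part of the work of Kif11, had 0.838 and 1.00 FPKM in P, against 7.20 and 7.89 in N (−2.15, SE 0.14, adjusted p = 6.0e-05). Kifc1, a minus end directed motor that holds the poles together, had 1.85 and 1.91 FPKM in P, against 11.0 and 14.9 in N (−2.26, SE 0.14, adjusted p = 5.5e-05). For each of these genes both P libraries lay far below both N libraries. The value of Kifc1 is uncertain, since 38.6% of the 50-base words of its transcripts also occur in those of Kifc5b, a near copy that the naming rule leaves out. Kifc5b had 1.32 and 1.75 FPKM in P, against 9.59 and 10.3 in N, and was called lower as well (−2.11, adjusted p = 2.9e-05).

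The depolymerising and chromosome motors did the same. Kif2c, which removes tubulin at centromeres and so corrects wrong attachments, had 1.76 and 1.45 FPKM in P, against 22.7 and 20.9 in N, and with −3.13 (SE 0.21, adjusted p = 7.4e-05) the largest change of any kinesin in this comparison. Kif18a, which damps the movement of chromosomes at metaphase, had 0.742 and 0.579 FPKM in P, against 4.01 and 4.50 in N (−1.66, SE 0.10, adjusted p = 4.7e-05). Kif18b, which shortens astral microtubules, had 1.67 and 1.29 FPKM in P, against 17.2 and 17.4 in N (−2.88, SE 0.12, adjusted p = 1.3e-05). The groups were separate for all 3 genes, and Kif18a changed least among the mitotic kinesins. The chromokinesin Kif22, which binds DNA and pushes chromosome arms, had 4.60 and 4.55 FPKM in P, against 43.8 and 42.2 in N (−2.98, SE 0.17, adjusted p = 3.6e-05). Kif4, the other chromokinesin, which also works at the midzone, had 1.30 and 1.42 FPKM in P, against 13.6 and 13.9 in N (−2.64, SE 0.12, adjusted p = 1.9e-05). Both showed a spread between replicates that was small beside the difference.

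The kinesins of the midzone and of cytokinesis fell too. Kif23, the motor of the centralspindlin complex, had 2.51 and 2.62 FPKM in P, against 22.1 and 25.5 in N (−2.80, SE 0.12, adjusted p = 1.5e-05). Kif20a, which brings the Aurora B complex to the midzone, had 3.08 and 3.26 FPKM in P, against 29.1 and 28.7 in N (−2.84, SE 0.19, adjusted p = 6.9e-05). Kif20b, its relative in cytokinesis, had 0.959 and 1.13 FPKM in P, against 7.44 and 9.25 in N (−2.19, SE 0.23, adjusted p = 0.00044), the largest SE of the class. Kif14, which acts at the midbody together with citron kinase, had 0.368 and 0.455 FPKM in P, against 4.35 and 3.94 in N (−1.87, SE 0.15, adjusted p = 0.00014). In all 4 genes the N libraries were the higher ones without overlap. With 2 libraries a group the calls depend on each of them. When an N or P library was left out, fewer of the 12 were called, and fewer of all genes were too. Kif18b, Kif22, Kif23 and Kif4 were called in each of these fits. With any 1 library left out, the change ran from −2.47 to −2.06 in Kifc1 and from −3.22 to −3.05 in Kif2c. Kif20b also lost its call without either PRL library (adjusted p = 0.0023).

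**Figure D3:**
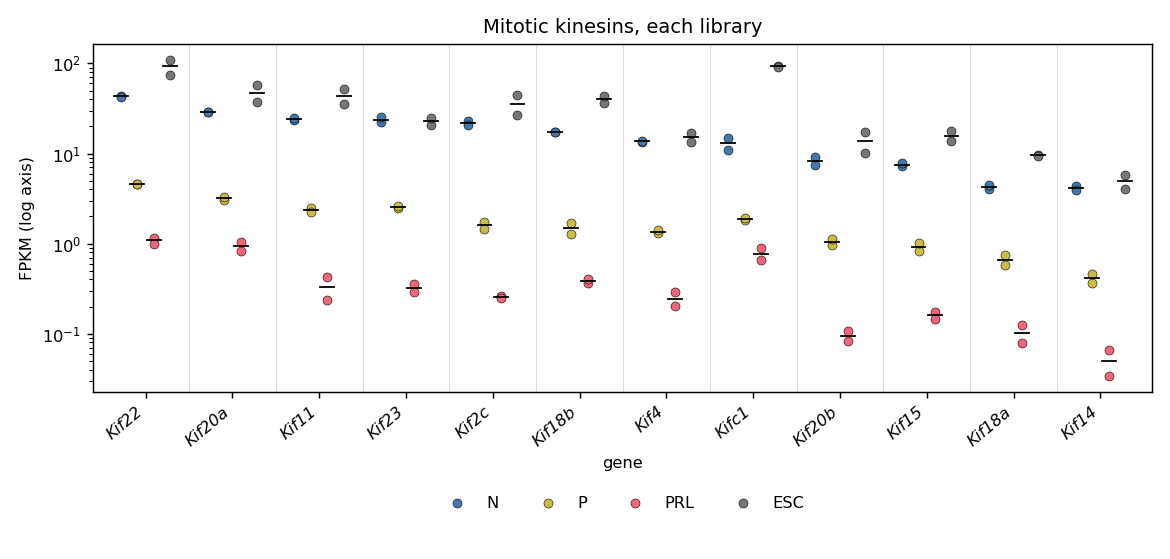
FPKM (log axis) of the 12 mitotic kinesins in each library, 2 points per group with a line at the mean, in the order of their mean in N. For Kif22 the points lie at 43.8 and 42.2 in N, 4.60 and 4.55 in P, 1.16 and 1.00 in PRL and 75.2 and 110 in ESC.

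The transport kinesins behaved differently. Kifc2, a minus end directed motor best known from neurons, was the one kinesin called higher in P than in N, a direction in which 4.54% of all genes were called. It had 7.89 and 7.33 FPKM in P, against 1.23 and 0.945 in N, a change of 2.05 (SE 0.12, adjusted p = 3.8e-05), and the mean in P was 7.01 times that in N. Both P libraries lay above both N libraries. Without P replicate 1 its adjusted p was 0.00111, short of the threshold. Of the exon bases of Kifc2, 4.15% overlap the gene Cyhr1 on the other strand, which changed by 0.95. Kif13b, which carries vesicles and membrane proteins, had 3.79 and 4.03 FPKM in P, against 1.81 and 1.57 in N, with a change of 0.87 (SE 0.10, adjusted p = 0.00065) just short of the limit on the fold.

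The most abundant transport kinesins differed less. Kif1c, a vesicle motor of the route between Golgi and endoplasmic reticulum, had 73.2 and 75.6 FPKM in P, against 61.3 and 62.2 in N (0.27, SE 0.16, adjusted p = 0.23). Kifc3, a minus end directed motor of apical transport and cell junctions, had 54.8 and 55.2 FPKM in P, against 40.5 and 37.7 in N (0.48, SE 0.06, adjusted p = 0.0013). Kif5b, the widely expressed heavy chain of conventional kinesin, had 29.0 and 29.9 FPKM in P, against 16.5 and 22.7 in N (0.58, SE 0.25, adjusted p = 0.11). None of the 3 was called. The partners Kif3a and Kif3b, motor subunits of the kinesin that builds cilia, changed by 0.14 and 0.20 with adjusted p of 0.60 and 0.090. Kif5a, the neuronal heavy chain, had 0.934 and 0.690 FPKM in P, against 0.373 and 0.118 in N (0.54, adjusted p = 0.021). Kif1b, Kif16b, Kif13a, Kif3c and Kif5c changed by 0.29, 0.22, −0.19, −0.15 and −0.10, with adjusted p of 0.052 to 0.61.

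**Figure D4:**
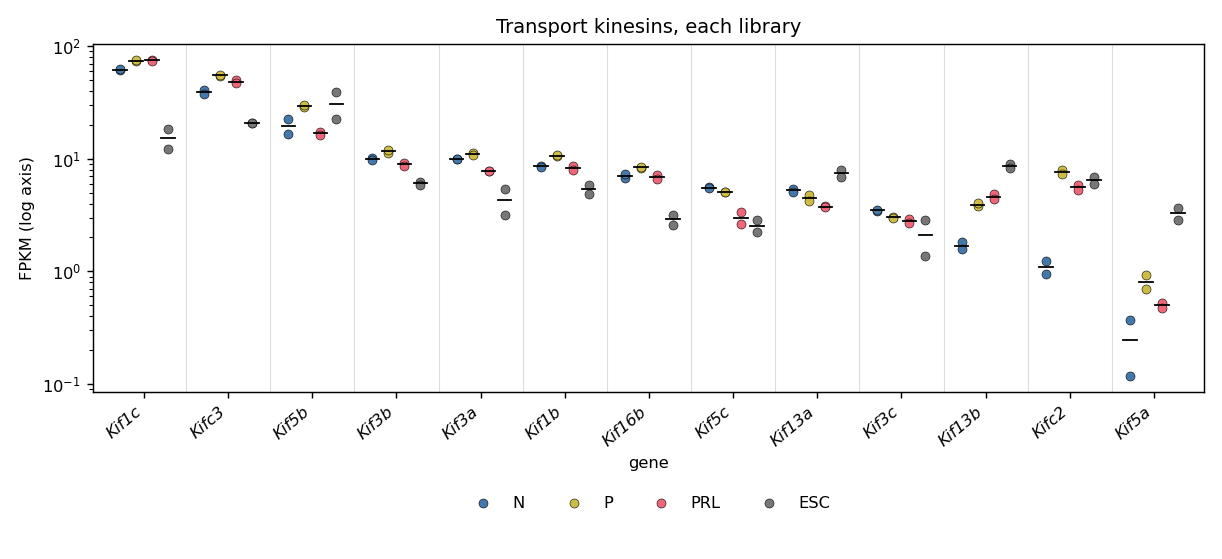
FPKM (log axis) of the 13 tested transport kinesins in each library, 2 points per group with a line at the mean, in the order of their mean in N. Kifc2 lies at 1.23 and 0.945 in N, 7.89 and 7.33 in P, 5.90 and 5.28 in PRL and 6.92 and 6.02 in ESC, and Kif1c between 61.3 and 75.6 in all HC11 libraries.

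In PRL cells compared with P cells, the mitotic kinesins were lower again, from a level that was already low. At the thresholds Kif23 alone was called lower, with 1.44% of all genes called lower, and 0 of 32 kinesins were called higher by limma, with 0.689% of all genes called higher (1 of 32 was higher at an unadjusted p under 0.05, against 11% of all genes). Kif23 had 0.357 and 0.293 FPKM in PRL, against 2.51 and 2.62 in P (−1.43, SE 0.12, adjusted p = 0.00064). Its call was lost without any 1 of the N, P or PRL libraries (adjusted p up to 0.0119), and under median ratio scaling, quantile normalization, no filter on low values or a replicate block. Between these groups the median change of all genes was −0.148, and 0.00 with median ratio scaling, which is the base for the values below. The mitotic kinesins had a median of −0.91 (range −1.43 to −0.43) and the transport kinesins one of −0.27 (range −0.77 to 0.19). Relative to the median of all genes this is −0.76 and −0.12, and with median ratio scaling −0.85 and −0.13.

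At an adjusted p under 0.05 with no limit on the fold, 11 of 12 mitotic and 4 of 13 transport kinesins were lower in PRL, against 27.3% of all genes. These counts were 11 and 1 with median ratio scaling and 9 and 0 with quantile normalization, where the median change of all genes was 0.00. The 27.3% belongs to the values without such scaling. The share of all genes under these scalings is not given here. The compressed log2 scale hides part of the ratio at such levels. Mean FPKM in P was between 2.43 times (Kifc1) and 11.1 times (Kif20b) that in PRL. Kif22 had 1.16 and 1.00 FPKM in PRL, against 4.60 and 4.55 in P (−1.42, SE 0.17, adjusted p = 0.0017). Kif11 had 0.428 and 0.239 FPKM in PRL, against 2.51 and 2.27 in P (−1.35, SE 0.18, adjusted p = 0.0026). Kif2c had 0.260 and 0.249 FPKM in PRL, against 1.76 and 1.45 in P (−1.05, SE 0.21, adjusted p = 0.011). None of the 3 passed the threshold on p. The lowest values rest on few fragments. Kif14 had 8 and 20 fragments in PRL, against 79 and 100 in P, Kif18a 11 and 9, against 60 and 48, and Kif20b 12 and 20, against 128 and 154. At such numbers the counting error is large beside the value.

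Among the transport kinesins, Kif5b had 17.4 and 16.3 FPKM in PRL, against 29.0 and 29.9 in P (−0.77, SE 0.25, adjusted p = 0.054), and Kif5c, a heavy chain found mostly in neurons, had 3.36 and 2.64, against 5.09 and 5.09 (−0.61, SE 0.13, adjusted p = 0.013). Neither Kif5b nor Kif5c was called. Kif1c did not move with them, at 75.3 and 74.2 FPKM in PRL, against 73.2 and 75.6 in P (0.01, SE 0.16), with groups that overlap. Kif26a, an atypical kinesin without motor activity that acts in signalling, had 22.2 and 21.4 FPKM in PRL, against 17.6 and 18.7 in P (0.25, SE 0.15, adjusted p = 0.25).

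Over both steps, PRL cells compared with N cells, 14 kinesins were called lower (8% of all genes were) and 2 higher (5.47% of all genes). This comparison shares the PRL and N libraries with those above. The 14 are the 12 mitotic kinesins and 2 of the others, Kif7 and Kif24. Mean FPKM of the mitotic kinesins in N was between 16.8 times (Kifc1) and 88.7 times (Kif20b) that in PRL. Their median change was −3.64, against −0.04 for the transport kinesins, a value that turned to 0.15 with median ratio scaling and 0.13 with quantile normalization. Their changes ran from −4.40 in Kif22 (SE 0.17, adjusted p = 4.0e-06) to −2.25 in Kif18a (SE 0.10, adjusted p = 7.8e-06).

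Kif7, a regulator of Hedgehog signalling at the tip of the cilium, had 2.01 and 1.88 FPKM in PRL, against 6.19 and 6.46 in N (−1.32, SE 0.08, adjusted p = 3.1e-05). With 3.84 and 3.75 FPKM, P cells lay between. Of its exon bases, 20.3% are shared with genes on the other strand, mainly 9330171B17Rik, which was not analysed here, and in part Ticrr, which was called lower too (−1.67, adjusted p = 2.0e-05). The counting is not stated to use strand. Kif24, which removes tubulin at the centriole and holds back cilia, had 0.505 and 0.416 FPKM in PRL, against 2.33 and 1.86 in N (−1.08, SE 0.12, adjusted p = 0.00035), and 0.990 and 0.893 in P. Both genes were lower in each PRL library than in any other HC11 library. The kinesins called higher were Kifc2, with 5.90 and 5.28 FPKM in PRL, against 1.23 and 0.945 in N (1.66, SE 0.12, adjusted p = 4.9e-05), and Kif13b, with 4.85 and 4.36, against 1.81 and 1.57 (1.06, SE 0.10, adjusted p = 0.00018). The call of Kif20b was lost without N replicate 2 or either PRL library (adjusted p up to 0.00144). The calls of Kif13b and Kif24 were lost without any 1 of the N, P or PRL libraries (adjusted p up to 0.00332 and 0.00555), and that of Kifc2 without PRL replicate 1 (adjusted p = 0.00119).

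**Figure D5:**
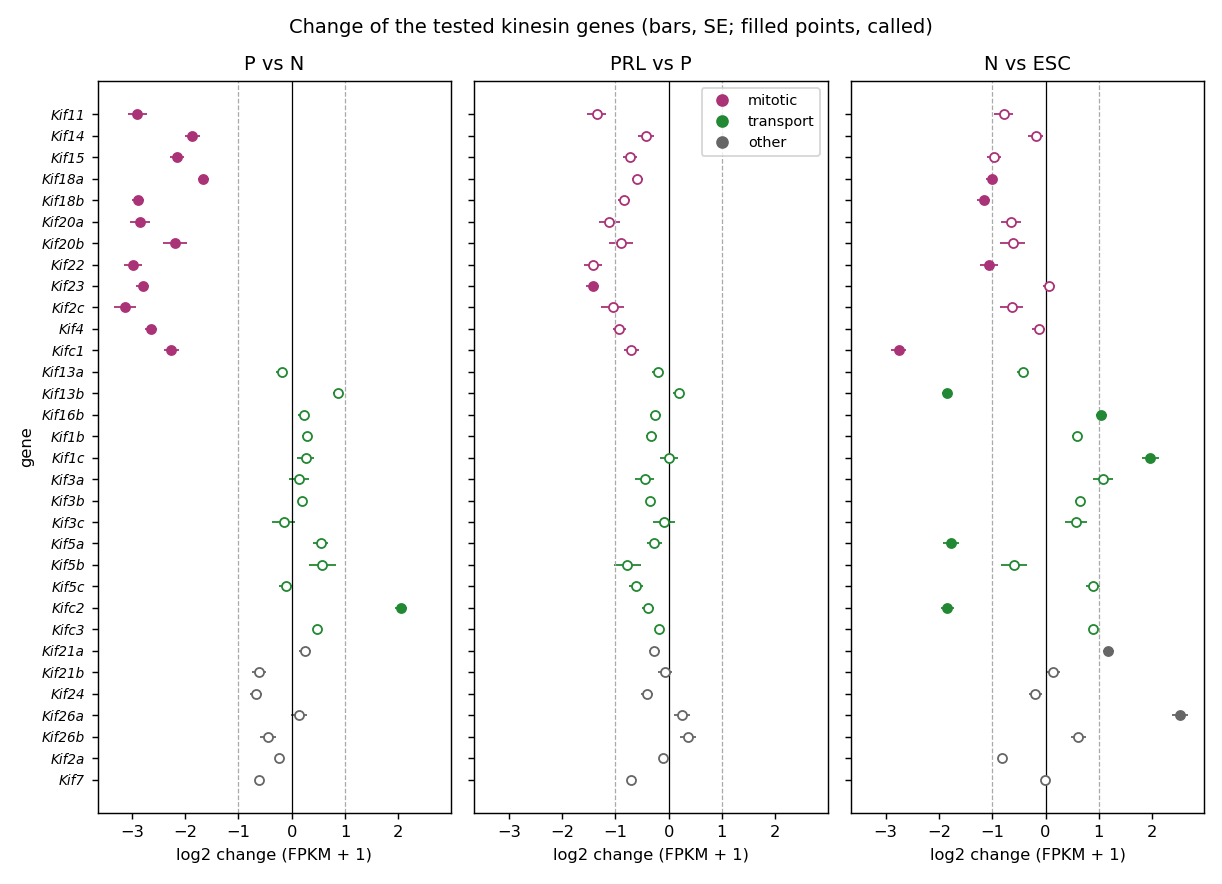
Change in mean log2(FPKM + 1) with its SE (horizontal axis) of the 32 tested kinesins in P vs N, PRL vs P and N vs ESC, coloured by class, with filled points for called genes and dashed lines at −1 and 1. The mitotic kinesins range from −3.13 to −1.66 in P vs N, left of all transport kinesins, which range from −0.19 to 2.05.

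Between N cells and ESC, 11 of 12 mitotic kinesins had a change below 0, while the transport kinesins went both ways. Of the 32 tested kinesins 7 were called lower (20.7% of all genes were) and 4 higher (15.6% of all genes), shares near those of all genes. The mitotic kinesins had a median change of −0.72, with 4 of 12 called lower and 0 higher. Kifc1 stood out with 11.0 and 14.9 FPKM in N, against 92.9 and 92.4 in ESC, where it was the most abundant kinesin (−2.76, SE 0.14, adjusted p = 4.6e-06). Its near copy Kifc5b was lower in N too, at 9.59 and 10.3, against 35.2 and 32.5 (−1.67, adjusted p = 1.4e-05). Kif18b had 17.2 and 17.4 FPKM in N, against 36.6 and 43.6 in ESC (−1.16, SE 0.12, adjusted p = 0.00011). Kif18a had 4.01 and 4.50 FPKM in N, against 9.69 and 9.50 in ESC (−1.01, SE 0.10, adjusted p = 9.7e-05), and these 3 genes were lower in N without overlap. Kif22 had 43.8 and 42.2 FPKM in N, against 75.2 and 110 in ESC (−1.06, SE 0.17, adjusted p = 0.00094), and was called in 1 of 8 fits that each left out a library, the one without ESC replicate 1.

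In 3 mitotic kinesins the difference between N cells and ESC did not exceed the spread of the libraries. Kif23 had 22.1 and 25.5 FPKM in N, against 20.7 and 24.9 in ESC (0.06, SE 0.12, adjusted p = 0.64). Kif4 had 13.6 and 13.9, against 13.5 and 16.9 (−0.13, SE 0.12, adjusted p = 0.36), and Kif14 had 4.35 and 3.94, against 4.07 and 5.76 (−0.19, SE 0.15, adjusted p = 0.28). In these 3 the groups overlap. Kif20b had 7.44 and 9.25 FPKM in N, against 17.3 in ESC replicate 1 and 10.2 in ESC replicate 2 (−0.62, SE 0.23, adjusted p = 0.042). In Kif2c, Kif11 and Kif20a the ESC libraries differed the other way, with 26.9 and 44.1, 35.0 and 51.5, and 36.9 and 57.3 FPKM in replicates 1 and 2.

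Of the 13 tested transport kinesins, 3 were called lower and 2 higher, near the shares of all genes (20.7% and 15.6%). Kif13b had 1.81 and 1.57 FPKM in N, against 9.03 and 8.36 in ESC (−1.85, SE 0.10, adjusted p = 5.3e-06), and Kifc2 had 1.23 and 0.945, against 6.92 and 6.02 (−1.84, SE 0.12, adjusted p = 1.1e-05). Kif5a, the third transport kinesin called lower, had 0.373 and 0.118 FPKM in N, against 3.65 and 2.88 in ESC (−1.78, SE 0.14, adjusted p = 3.7e-05). It passed the filter through its ESC libraries alone, with at most 0.934 FPKM in HC11 cells, so lower was the only possible call. For all 3 genes N had the lowest mean of the 4 groups. Called higher were Kif1c, with 61.3 and 62.2 FPKM in N, against 18.4 and 12.3 in ESC (1.97, SE 0.16, adjusted p = 4.0e-05), and Kif16b, a motor of early endosomes, with 6.75 and 7.30, against 3.20 and 2.60 (1.05, SE 0.10, adjusted p = 0.00010). Of the others, Kif26a rose to 16.5 and 16.5 FPKM in N, against 2.58 and 1.55 in ESC (2.53, SE 0.15, adjusted p = 9.6e-06), and Kif21a, a motor of neuronal axons that slows microtubule growth, had 4.87 and 4.96, against 1.82 and 1.43 (1.18, SE 0.10, adjusted p = 5.8e-05).

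The ESC libraries decide part of these counts. Without ESC replicate 1, which holds more of the fibroblast markers, Kif11, Kif15, Kif3a and Kif5c were called as well. In that fit more of all genes were also called lower and higher. Without ESC replicate 2, Kif22 and Kif16b lost their calls, with changes of −0.79 and 0.93. More of all genes were called lower and fewer higher there. Without either N library, Kif18b, Kif22 and Kif16b lost their calls, and fewer of all genes were called. Kif18a lost its call without N replicate 1, with a change of −0.95. The part of the fibroblast markers in these values was not tested.

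The partners of the motors were counted in the same fits. Of 17 spindle and midbody genes, 16 were called lower in P than in N (4.1% of all genes were), with a median change of −2.95. The exception is Numa1, which gathers microtubules at the poles and is present throughout the cell cycle, at 30.1 and 29.1 FPKM in P, against 29.3 and 29.2 in N. Racgap1, the other part of centralspindlin beside Kif23, had 8.21 and 8.22 FPKM in P, against 72.7 and 68.2 in N (−2.95, adjusted p = 1.5e-05). Cenpe, the kinetochore kinesin that the naming rule does not reach, had 1.09 and 1.14, against 9.55 and 10.6 (−2.39, adjusted p = 6.6e-05). In PRL compared with P, 5 of the 17 were called lower (1.44% of all genes were), namely Anln, Aurkb, Birc5, Prc1 and Racgap1. Of these, Prc1, the bundler of midzone microtubules that recruits Kif4, had 1.35 and 1.43 FPKM in PRL, against 5.73 and 6.44 in P (−1.56, adjusted p = 0.00072). In N compared with ESC, 1 of the 17 was called higher (Aurkb) and 2 lower (Cit and Ndc80). Of all genes, 15.6% were called higher and 20.7% lower there, so these counts are not above those shares. The 8 proliferation markers moved beside the spindle and midbody genes in HC11 cells. Of the 8, 8 were called lower in P than in N (4.1% of all genes) and 5 in PRL than in P (1.44% of all genes). Their summed level was 130 and 136 FPKM in P, against 725 and 698 in N, and 84.3 and 87.8 in PRL. Most of the sum in P and PRL is Pcna, with 74.4 and 76.4 FPKM in P and 66.0 and 69.3 in PRL. Not called in PRL compared with P were Pcna, Mcm2 and Ccnb1 (−0.15, −0.29 and −1.59). Mki67, which was called, had 0.136 and 0.140 FPKM in PRL, against 3.14 and 3.41 in P. How much of the fall of the mitotic kinesins goes with a smaller share of dividing cells was not tested.

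None of the partners of the transport kinesins passed the thresholds at a step in HC11 cells, and few of all genes did. Of 17 light chains, adaptors and cargo proteins, 0 were called in P compared with N and 0 in PRL compared with P by limma. Of all genes, 4.1% were called lower and 4.54% higher in P than in N, and 1.44% and 0.689% in PRL than in P. At an unadjusted p under 0.05, 9 were higher and 2 lower in P than in N (28.1% and 25.1% of all genes), with a median change of 0.41, and 2 were higher and 2 lower in PRL than in P (11% and 34.9% of all genes). Plekhm2, which links lysosomes to kinesin, was the one gene of the 17 called in PRL compared with N (5.47% of all genes were called higher). It had 15.0 and 14.4 FPKM in PRL, against 6.44 and 6.84 in N (1.04, adjusted p = 0.00026). Klc3, a light chain of conventional kinesin, had 29.8 and 27.7 FPKM in N, against 4.89 and 2.89 in ESC (2.63, adjusted p = 1.6e-05). Trak2, an adaptor of mitochondria, was called higher there as well, while Mapk8ip2 was called lower. Mapk8ip2 had at most 0.0167 FPKM in HC11 libraries and passed the filter through ESC alone, so lower was its only possible call. Of all genes, 15.6% were called higher and 20.7% lower in N than in ESC. Dynein with dynactin is the motor that runs to the other end of the microtubule. Of its 22 tested genes, 0 were called by limma in P compared with N and 0 in PRL compared with P, beside the same shares of all genes. At an unadjusted p under 0.05, 1 was higher and 7 were lower in P than in N, and 1 was higher and 9 were lower in PRL than in P (lower: 25.1% and 34.9% of all genes). Dynll1 and Nde1, 2 of the 22, were called lower in PRL than in N, with −1.24 and −1.35, where 8% of all genes were called lower.

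Some kinesins share exon sequence with a gene on the other strand, so that an unstranded count would mix them. In the GENCODE annotation the shared part was 29.3% of the exon bases of Kif20a (with Cdc23), 15.1% of Kif4 (Pdzd11), 40.7% of Kif3c (mainly 1110002L01Rik) and 19.2% of Kif2a (Dimt1). In P compared with N, Cdc23 changed by −0.09 and Pdzd11 by −0.40, and neither was called, while Kif20a and Kif4 fell.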

How the data were processed

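RNA was depleted of ribosomal RNA, selected for poly(A) and sequenced from both ends. The authors aligned reads to GRCm38/mm10 with TopHat 2.1.0 (2 mismatches), counted them with featureCounts of Subread 1.5.0 and deposited FPKM per gene and library. Annotation and strand setting are not given in the sources used here. Deposited tables of the authors' own comparisons (fold changes and p-values of DESeq2) were not used. The FPKM of 16933 genes above 0 in at least 3 libraries were whole multiples of 1 fragment (100% within 0.01 fragments), which gave the depth (11938392 to 33916913 fragments). The FPKM are not counts, and no count model was fitted.

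limma 3.58.1 (trend and robust, R 4.3.3) was run on log2(FPKM + 1), the 4 groups in 1 fit without a replicate block, after a filter of 1 FPKM in 2 libraries (4 residual degrees of freedom). Within each comparison the Benjamini-Hochberg adjustment covered all 13210 genes, and the call thresholds are those of the study. Every kinesin could be named, as could partner genes past the thresholds. Partner genes outside that rule (Numa1) and genes that overlap a kinesin were named after their values were seen. The members and lists were chosen with earlier results of these data known. The labels do not say whether replicates were separate cultures, so the p-values reflect the spread of these samples alone, which may be technical. Alternatives were other pseudocounts, filters and scalings, a replicate block, a fit without ESC, another threshold on p, and leaving out each library. The test was run on simulated data first. Promoters came from RefSeq and overlaps from GENCODE M21, both on GRCm38; not every overlap is reported here. Python 3.11.15 with pandas 2.3.3 and matplotlib 3.10.9 was used.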

Additional observations from a re-analysis of the deposited data

How the results depend on the processing

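Of 41 called results (a kinesin in a comparison), none changed its direction under any alternative that was run, and 38 kept their call with median ratio scaling, 38 with quantile normalization, 38 with no filter on low values, 39 with a pseudocount of 0.1, 40 with one of 0.5 and 41 at an adjusted p under 0.05, and of the 37 that could be tested with a filter at 5 FPKM all 37 did. Class medians near 0 did turn, that of the transport kinesins in PRL compared with N from −0.04 to 0.15 with median ratio scaling and 0.13 with quantile normalization, and that of the other kinesins in PRL compared with P from −0.10 to 0.03 and 0.18. The count of kinesins called lower in PRL than in P (1) was 3 with a pseudocount of 0.1, 5 at an adjusted p under 0.05, 5 without the ESC libraries, and 0 with median ratio scaling, quantile normalization or no filter. The count higher in P than in N (1) was 2 with a pseudocount of 0.1 and 2 with 0.5, Kif13b being added. Leaving out 1 library gave 4 to 9 kinesins lower and 3 to 6 higher in N than in ESC, 4 to 12 lower and 0 to 1 higher in P than in N, 0 to 5 lower in PRL than in P, and 12 to 14 lower and 0 to 2 higher in PRL than in N. The number of all genes called changed in these fits as well. In such a fit the lone library of a group is assumed to vary like the other groups. The replicate numbers did not pair the libraries (correlations −0.0275 to 0.0824 between same-numbered libraries). A replicate block gave 11 kinesins lower and 1 higher in P than in N, 0 lower in PRL than in P, 14 lower and 2 higher in PRL than in N, and 6 lower and 4 higher in N than in ESC. Computed from recovered fragments, which weight long genes more, the mitotic share of the kinesins was 36.3% in N, 4.73% in P, 1.11% in PRL and 62.5% in ESC, against 49.4%, 7.71%, 2.02% and 74.4% from FPKM. Without Kif1c it was 57.8%, 10.4%, 2.95% and 76.4%. Depth limits the mitotic kinesins in PRL, where 3 fragments of a 1 kb transcript make 0.114 and 0.0885 FPKM in the replicates.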

Other observations

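The kinesins that were too low to be tested had their own patterns, given here as levels. Kif6, a kinesin of motile cilia, had 0.717 and 0.668 FPKM in N, 0.295 and 0.461 in P, 0.162 and 0.134 in PRL, and 0.0578 and 0.0237 in ESC, so that each PRL library was below each P library and each P library below each N library. Its ESC values rest on 3 and 1 fragments. Kif12 was listed at 0.370 and 0.271 FPKM in P (20 and 15 fragments), against 0 and 0.0388 in N, and had 0.0509 and 0.0917 in PRL and 0 in both ESC libraries. Kif9, also a gene of cilia, had 0.812 and 0.885 FPKM in P, against 0.676 and 0.638 in N, and 0.744 and 0.896 in PRL and 0.526 and 0.504 in ESC. Kif27 had at most 0.291 FPKM in any library. Kif17, a motor of cilia and dendrites, had 0.695 and 0.385 FPKM in ESC and at most 0.0639 in the HC11 libraries. Kif19a had 0.337 and 0.195 FPKM in ESC and at most 0.0636 in HC11 cells. Kif1a, the motor of synaptic vesicle precursors, was listed at 0.412 and 1.44 FPKM in ESC and at 0 in the 6 HC11 libraries, and Kif2b at 0 in all 8.

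The difference between the ESC libraries went with gene length. The median of replicate 1 minus replicate 2 in log2(FPKM + 1) was 0.05 over 3617 genes with under 2000 exon bases, 0.13 over 4571 genes of 2000 to 4000, 0.17 over 2114 genes of 4000 to 6000 and 0.20 over 1244 longer genes, while in N it was 0.00 in each of these classes. In PRL the medians were −0.03, 0.02, 0.04 and 0.07. Kif1c, Kif5b and Kif3a, which were higher in ESC replicate 1 (18.4 against 12.3, 39.1 against 22.6 and 5.38 against 3.18 FPKM), have 6764, 6030 and 5450 exon bases, and Kif20b, also higher there (17.3 against 10.2 FPKM), has 5563. Not every long kinesin went this way, since Kif14 with 8943 exon bases had 4.07 FPKM in replicate 1 and 5.76 in replicate 2, and Kif11, Kif15 and Kif4 (4819, 4823 and 4712 exon bases) were lower in replicate 1 as well. Of the shorter mitotic kinesins, Kif18a and Kifc1 were nearly equal (9.69 and 9.50, and 92.9 and 92.4 FPKM). The part of length in their values was not tested.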
